A study of Glycyrrhiza uralensis with 30 samples.

Results

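A group of 127 among 34445 measured genes of *Glycyrrhiza uralensis*, a licorice, was high in the shoots after 2 h in polyethylene glycol (PEG 6000) and low after 12 h. The group was picked by 4 conditions on group means of log2(TPM + 1), where TPM gives a transcript's abundance relative to the library's total. The mean at 2 h had to lie at least 1 above control in the aboveground parts, and the mean at 12 h at least 1 below it. In the underground parts the mean at 2 h had to lie within 1 of control, and at least 1 of the 10 group means had to reach 5 TPM. These conditions used the aboveground control, 2 h and 12 h libraries and the underground control and 2 h libraries, so the values there are a description. Libraries of 6 h and 24 h, and the underground ones of 12 h, entered only through the floor of 5 TPM, and tests compare these alone.

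All groups were seedlings labelled as 60 days old and differed in the part sampled and in the treatment. Aboveground parts were stems and leaves, and underground parts were roots. Treated seedlings were held for 2, 6, 12 or 24 h in MS nutrient solution with 100 g/L PEG 6000, and the 0 h control is labelled as distilled water. Each of the 10 groups has 3 libraries, 30 in all, named here by the number in their titles. The labels list no control at 2, 6, 12 or 24 h, so PEG, medium and time elapsed cannot be told apart in any difference between times. Whether the 3 libraries of a group are separate plants is not labelled, so p-values reflect only the variation among these samples, and that variation may be technical. TPM keeps no read number, so the depth is unknown, and between 18959 and 21776 genes per library reached 1 TPM.

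PEG 6000 is a polymer too large to enter plant cells readily, and it lowers the water potential of the solution around the roots. Shoots then receive less water and, through the hormone abscisic acid, signals that close stomata and change transcription. Stress-responsive transcripts may rise briefly, stay raised, or return and rise again, and a time series separates such courses. The tables carry identifiers without gene names, so roles of single genes are not given, the tissue labels could not be checked against marker genes, and 4 genes are given by identifier.

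Over the 4 treated aboveground groups the summed level of the genes was high at 2 h, near control at 6 h, low at 12 h and high at 24 h. Their summed level was 6019, 10905 and 6428 TPM in control libraries 31, 32 and 33. At 2 h it was 50296, 51569 and 47036 TPM, which was 4.84% to 5.32% of all TPM in these libraries. It stood at 10977, 8915 and 7589 TPM at 6 h, at 1496, 2384 and 2616 TPM at 12 h, and at 21988, 31497 and 34228 TPM at 24 h. The libraries of 2 h lay above all others and those of 12 h below all others, while those of control and 6 h overlapped. In bulk samples, fewer cells of a type and less RNA per cell cannot be told apart.

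**Figure D1:**
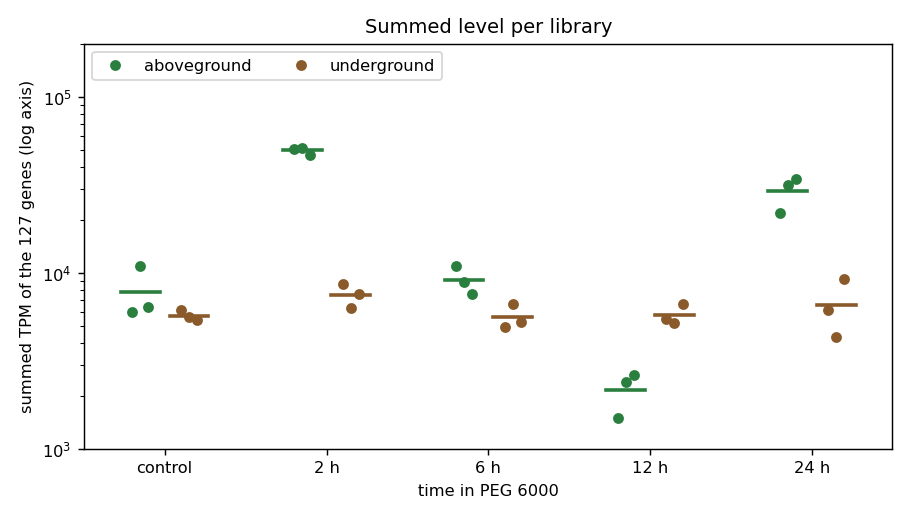
Summed TPM of the 127 genes (vertical log axis) in each library against time in PEG 6000, with aboveground libraries in green, underground libraries in brown and bars at the mean of 3. Aboveground libraries span 1496 TPM at 12 h to 51569 TPM at 2 h, and underground libraries span 4328 to 9280 TPM.

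A few abundant genes made up much of the sum. The 10 genes highest at 2 h held 52.1% of it there. Without them the aboveground sums were 4475 to 8624 TPM in control, 20252 to 26303 TPM at 2 h, 5890 to 7708 TPM at 6 h, 1108 to 2167 TPM at 12 h and 14750 to 22611 TPM at 24 h. Control and 6 h again overlapped, and 2 h and 24 h now overlapped too. The median gene stood at 21.6 to 33.6 TPM in the control libraries, 118.5 to 147.8 TPM at 2 h, 23.6 to 34.9 TPM at 6 h, 3.62 to 9.34 TPM at 12 h and 99.9 to 140.4 TPM at 24 h. At 2 h, 72 genes averaged at least 100 TPM, and at 12 h 17 averaged under 1 TPM.

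**Figure D2:**
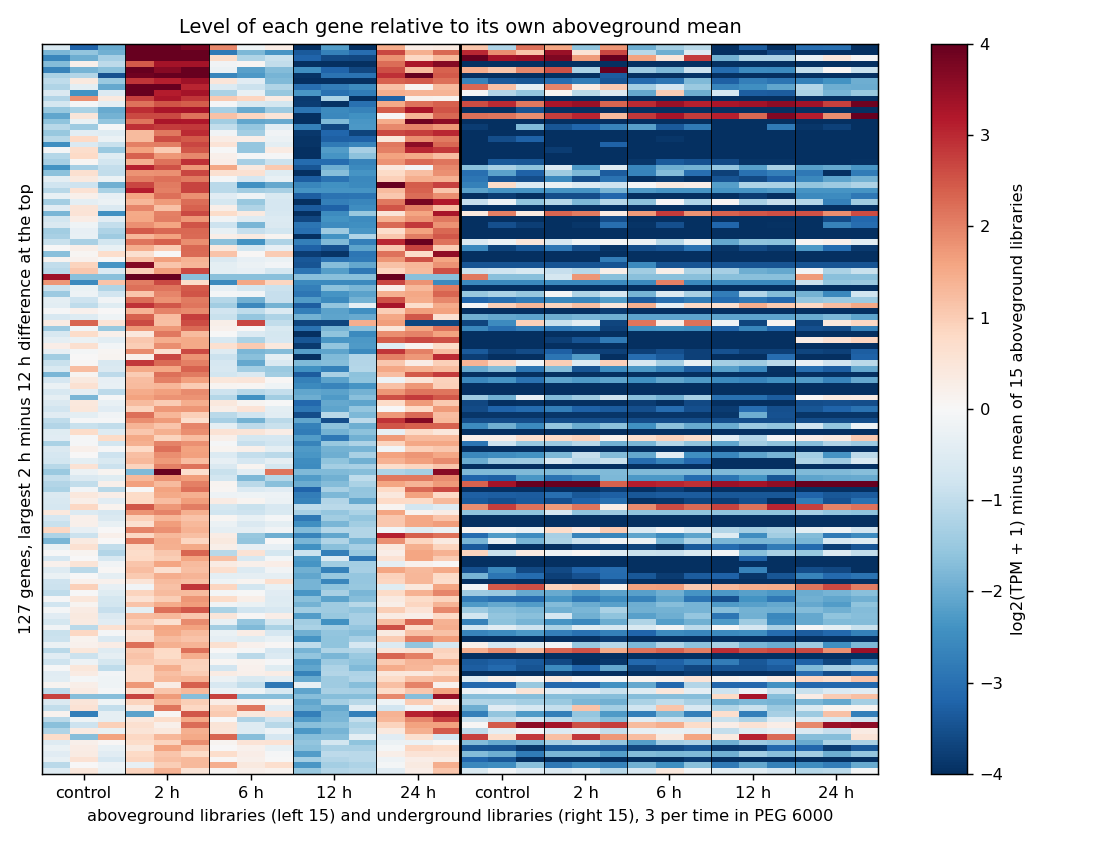
Level of each of the 127 genes (rows) in the 30 libraries (columns, 3 per time), as log2(TPM + 1) minus the gene's mean over its 15 aboveground libraries, with colours ending at -4 and 4. Aboveground columns are red at 2 h and 24 h, pale in control and 6 h and blue at 12 h, while many rows are blue throughout the underground columns.

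The differences from control that the conditions used ranged widely. At 2 h they ran from 1.02 to 6.83 on the log2(TPM + 1) scale with a median of 1.83, and 22 genes were at 3 or more. At 12 h they ran from -4.02 to -1.004 with a median of -1.53, and 36 genes were at -2 or lower. The 3 libraries of 2 h all lay above the 3 of control for 111 genes, where 11.4% of 23541 genes did so, and nothing is read from this because the conditions used these libraries. The 3 libraries of 12 h all lay below control for 99 genes, where 5.29% of all genes did so, with the same limit, and above control for 0 genes, where 9.36% did so. Just inside and outside the limits lay values of 1.02 and 0.99 at 2 h, -1.004 and -0.997 at 12 h, and 0.990 and 1.001 in size underground. A further 1055 genes met every condition but the one at 12 h.

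At 6 h the genes were near control. The median difference was 0.03, and 110 of the 127 lay within 1 of control. So did 21194 of all 23541 genes tested, with a median of -0.067, so being near control was common to most genes. All 3 libraries of 6 h lay above control for 8 genes and below it for 12, where 7.01% and 6.53% of all genes did so. At 24 h they were again high, with a median difference from control of 1.87 and 98 genes at 1 or more. Their 3 libraries of 24 h lay above the 3 of control for 89 genes, where 11.3% of all genes did so, and below for 1, where 18.2% did so. Control libraries helped to choose the genes, so these differences carry no test. For 111 genes the 6 h mean lay above that of 12 h and below those of both 2 h and 24 h. The conditions had set the 2 h mean above control and the 12 h mean below it. A 6 h mean near control then falls between them, so nothing is read from this order.

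The change from 6 h to 24 h in shoots compares libraries outside the differences behind the selection. The filter and the spread of the fit also used the control, 2 h and 12 h libraries of shoots. All 127 genes passed the filter of 1 TPM in at least 3 of the 15 libraries. By limma with Benjamini-Hochberg adjustment over 23541 genes, 74 rose and 1 fell at an adjusted p under 0.05, which is 58.3% and 0.787% of them. Among all genes tested, 6.87% rose and 10.7% fell. The median change of the 127 genes was 1.74 on the log2(TPM + 1) scale, or 3.35-fold, against -0.065 for all genes. Median-ratio rescaling of the libraries moved the median of all genes to 0.057 and that of the 127 to 1.93, and 75 then rose. Over all genes 9.38% then rose and 9.22% fell. Of the 52 genes that did not pass, 42 had a change above 0 and 19 had one of at least 1. Among all 23541 genes, called or not, 10809 had a change above 0 and 2776 one of at least 1. With only the 6 libraries compared, 125 of the 127 genes passed the filter and 74 rose, 68 of them among the 74 above. None of the 127 was then called lower, and over all genes 5.88% rose and 7.53% fell.

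Genes that met every condition but the one at 12 h were also often higher at 24 h than at 6 h. Of 1032 tested, 430 rose and 3 fell, 41.7% and 0.291%, with a median change of 1.11. Whether the share differs from the 58.3% above was not tested. All 3 libraries of 24 h lay above the 3 of 6 h for 91 of the 127 genes, where 13.4% of all genes did so, and below for 4, where 19.9% of all genes did so.

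**Figure D3:**
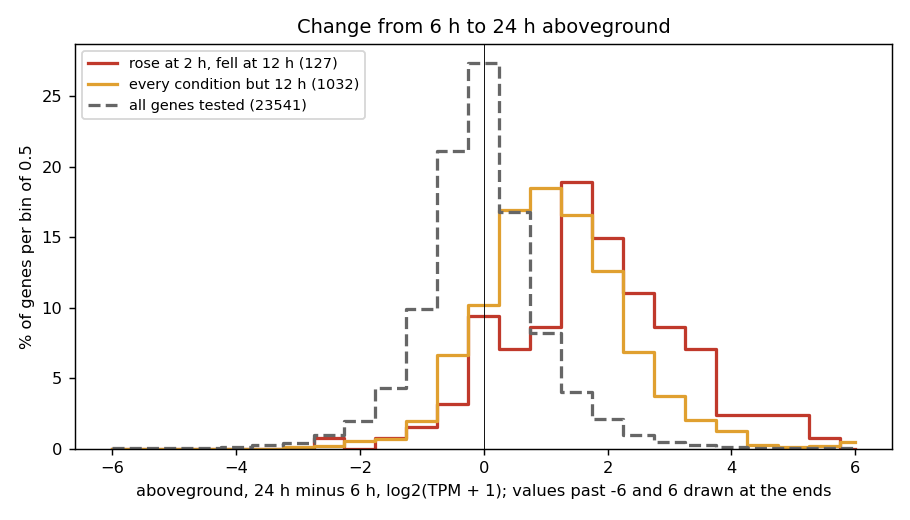
Change from 6 h to 24 h in the aboveground parts on the log2(TPM + 1) scale (horizontal) against the percent of genes in bins of 0.5 (vertical), for the 127 genes (red), 1032 genes meeting every condition but the one at 12 h (yellow) and all 23541 genes (grey dashes). The red curve is centred on a median of 1.74, the yellow on 1.11 and the grey on -0.065.

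Levels are also given by the size of the 2 h difference, a value that the selection used, so this split is a description. The 73 genes with a 2 h difference under 2 had a median level of 29.4 TPM in control, which was 84.7 TPM at 2 h, then 9.17 TPM at 12 h and stood at 80.8 TPM at 24 h. The 22 genes with a 2 h difference of 3 or more started from a median of 19.9 TPM in control and had 396.3 TPM at 2 h, then 7.30 TPM at 12 h and 230.3 TPM at the last time. From 6 h to 24 h, 33 of the 73 and 18 of the 22 rose, as did 23 of the 32 genes in between, where 6.87% of all genes did. Whether these shares differ was not tested. At 24 h, 92 of the 127 genes were within 1 of their 2 h level, 28 were lower by at least 1 and 7 were higher by at least 1. Among all 23541 genes tested, 20901 were within 1, 1201 were lower and 1439 were higher by at least 1. All 3 libraries of 24 h lay below those of 2 h for 25 genes and above them for 7, where 8.90% and 7.08% of all genes did so. Between 6 h and 12 h, 98 genes had all libraries of 12 h lower and 0 had all higher, where 9.09% and 17.7% of all genes did. The libraries of 2 h and 12 h had chosen the genes, so nothing is read from these counts.

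Levels in roots were lower for most of the genes. Underground sums were 5430 to 6133 TPM in control, 6290 to 8666 TPM at 2 h, 4901 to 6661 TPM at 6 h, 5170 to 6648 TPM at 12 h and 4328 to 9280 TPM at 24 h, so the 2 h libraries lay above those of control and the range of 24 h contained all the other underground libraries. In every underground group mean, 76 of the 127 genes stayed under 10 TPM, 24 of them under 1 TPM, and 14 genes reached 100 TPM in at least 1 group. At 6 h, 81 genes were higher in shoots and 12 higher in roots by limma over all 30 libraries, where 15.8% and 23.4% of 25420 genes were. At 24 h, 108 were higher in shoots and 6 higher in roots, where 15.8% and 28.7% of all genes were. Of the 127 genes, 28 reached 1 TPM in fewer than 3 root libraries and entered this fit through the shoots, where they are high. They make up 25 of the 81 and 27 of the 108, and for them a higher shoot level follows from the filter. The conditions also favour genes high in shoots, as a fall at 12 h needs some shoot level in control. A low root level, in turn, easily stays within 1 of control. Of 1045 genes meeting every condition but the one at 12 h, 20.1% were higher in shoots and 27% in roots at 6 h. At 24 h these shares were 41.2% and 10.8%. How much of the shoot excess follows from the conditions was not tested. The median shoot minus root difference of the 127 genes was 2.30 at 6 h and 3.95 at 24 h on the log2(TPM + 1) scale, and -0.195 and -0.318 over all genes. Median-ratio rescaling set the median of all genes to 0 and gave 2.43 and 4.38 for the 127, with 9 genes higher in roots at 6 h and 3 at 24 h. After this rescaling 18.3% and 17.9% of all genes were higher in roots, so that share fell over all genes too. The 81 genes higher in shoots at 6 h were also higher there at 24 h, and 3 of the 12 higher in roots at 6 h were higher in shoots at 24 h.

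In roots, 8 of the genes were called between 6 h and 24 h and 1 between 6 h and 12 h. From 6 h to 24 h, 7 rose and 1 fell among the 99 genes that passed the filter there, 7.07% and 1.01%, where 1.67% and 2.56% of 23107 genes did by limma. At an unadjusted p under 0.05 there were 28 of the 99, or 28.3%, against 19.3% of all genes. All 8 were among the genes that rose in shoots over the same times. The 7 became 4 with a filter of 5 TPM, which left 62 of the genes to test, where 1.99% of all genes rose. The single fall became 0 without underground library 6 of 6 h, 2 without library 5 of 6 h, 3 without library 12 of 24 h and 2 with only the 6 libraries compared. From 6 h to 12 h, limma called 0 rises and 1 fall, where 0.0173% and 0.164% of all genes were called, and limma without a mean-variance trend gave the same counts. At an unadjusted p under 0.05 there were 19 of the 99, 4 of them higher, against 8.51% of all genes in either direction. Without underground library 9 of 12 h, 1 rise was called, where 0.0261% of all genes rose.

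The 1 gene that fell in roots from 6 h to 12 h, chosen after its values were seen, was low in both parts at 12 h. Its underground levels were 8.91, 13.36 and 13.78 TPM in control, 24.06, 17.52 and 20.17 TPM at 2 h, 3.79, 5.36 and 3.50 TPM at 6 h, 0.26, 0.22 and 0.13 TPM at 12 h, and 16.23, 13.78 and 25.12 TPM at 24 h. Each of these groups was separate from those next to it in time. The log2 change was -2.10 from 6 h to 12 h (SE 0.26, limma adjusted p = 0.00357) and 1.87 from 6 h to 24 h (SE 0.26, limma adjusted p = 0.00182).

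The shoot change from 6 h to 24 h minus the root change was tested in 1 model of all 30 libraries. The difference was higher in shoots for 50 of the 127 genes and lower for 1, 39.4% and 0.787%, where 2.46% and 3.38% of all genes were called by limma. Its median was 1.70 on the log2(TPM + 1) scale, against -0.075 for all genes. Among 1045 genes meeting every condition but the one at 12 h, 206 were higher in shoots and 1 lower, 19.7% and 0.0957%. Their median was 0.929, and whether their share differs from the 39.4% was not tested. Of the 50, 49 rose in shoots. Another limit is that 15 of the 50 are among the 28 genes too low in roots for the root filter, so their called difference restates the shoot change, and the other 35 passed that filter. With a pseudocount of 0.1 the counts were 30 and 2. No share over all genes is set beside these 2 counts, so nothing is read from the drop. The 1 gene with the lower difference, singled out after its values were seen, rose in both parts. In roots it went from 0.53, 0.17 and 0.31 TPM at 6 h to 35.62, 43.44 and 52.84 TPM at 24 h, and in shoots from 18.21, 11.23 and 17.79 TPM to 158.68, 183.48 and 174.71 TPM.

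**Figure D4:**
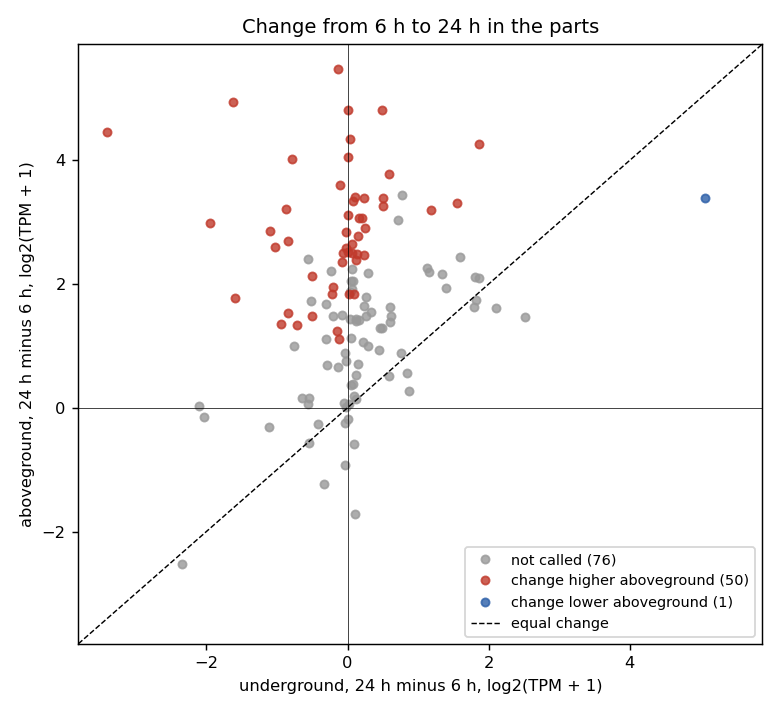
Change from 6 h to 24 h of each of the 127 genes in the underground parts (horizontal) and the aboveground parts (vertical), on the log2(TPM + 1) scale, with the dashed line at equal change. The 50 red points have a change called higher in shoots, the 1 blue point one called lower, and the 76 grey points were not called.

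A subset was abundant in roots before treatment. At control, 90 genes were higher in shoots by at least 1 on the log2(TPM + 1) scale and 16 higher in roots. Among all 23541 genes tested in shoots, 4369 were higher in shoots by that much and 3880 in roots. Control libraries of both parts helped to choose the genes, so these counts are a description. Of the 14 genes that reached 100 TPM in roots, 5 stood at least 2 below control there at 24 h. So did 6 of the 127 genes and 262 of the 23541, whatever their root level. The 14 were picked by a high root mean, control included, which favours later values below control, so nothing is read from this count. The most abundant gene of shoots at 2 h, picked after its values were seen, was one of these 5. It had 511.07, 98.24 and 1060.91 TPM in root controls and 27.33, 27.96 and 8.09 TPM in roots at 24 h, with no overlap. In shoots it was at 151.07, 24.78 and 57.80 TPM in control, 10554.74, 8320.61 and 3208.44 TPM at 2 h, 884.49, 208.47 and 287.50 TPM at 6 h, 2.11, 48.92 and 11.40 TPM at 12 h, and 650.85, 286.01 and 302.50 TPM at 24 h. Its shoot levels at 6 h and 24 h overlapped, and the change of 0.029 between them did not pass (SE 0.92, limma adjusted p = 0.993).

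Levels of root-biased genes moved in some shoot libraries. A set of 650 other genes stood at least 3 higher in roots than in shoots at control, on the log2(TPM + 1) scale. Their sum in shoots was 3187 to 7238 TPM in control, 18403 to 34853 TPM at 2 h, 3759 to 8556 TPM at 6 h, 6312 to 7464 TPM at 12 h and 4250 to 11713 TPM at 24 h. The 2 h shoot libraries, with which the 127 genes were chosen, thus lay above the rest, and the ranges of 6 h and 24 h overlapped. A low shoot level in control helped to pick the 650, which favours later values above it. A set of 1122 other genes met the reverse limit, picked by a high shoot control. Their sum in shoots was 280892 to 330552 TPM in control and 188540 to 255949 TPM at 2 h. It was 271394 to 347759 TPM at 6 h, 256169 to 314562 TPM at 12 h and 232689 to 387334 TPM at 24 h. Of the 127 genes, 5 met the same limit for roots and 50 the reverse limit for shoots. The part of either set in the 2 h levels was not tested.

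Libraries of one group also differed from each other. In control, library 32 held the highest value of 91 of the 127 genes, where it did so for 30.6% of all genes. At 12 h, library 7 held the lowest value of 90 of the 123 genes whose values differed, against 42.5% of all genes. At 24 h, library 10 held the lowest value of 68, against 20.6%. The median SD between libraries of a group was 0.38 to 0.60 on the log2(TPM + 1) scale for the 127 genes in shoots and 0.30 to 0.46 for all genes. Leaving out single libraries in turn gave 61 to 73 rises from 6 h to 24 h in shoots, in place of 74. Over all genes 4.44% to 6.07% then rose, in place of 6.87%.

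Glyur000490s00023923 had the largest 2 h difference. Its shoot levels were 21.06, 25.29 and 19.69 TPM in control, 4026.17, 3078.70 and 1417.54 TPM at 2 h, 10.04, 21.67 and 14.28 TPM at 6 h, 6.61, 11.12 and 8.45 TPM at 12 h, and 498.73, 209.32 and 384.23 TPM at 24 h. The groups of 2 h and 24 h lay above all others and did not overlap. In roots it had 637.84, 282.46 and 170.90 TPM in control, 870.63, 116.28 and 507.11 TPM at 2 h, 35.17, 19.52 and 54.02 TPM at 6 h, 2.58, 3.64 and 5.30 TPM at 12 h, and 2.64, 2.00 and 2.08 TPM at 24 h. It thus ended low in roots while it was high in shoots. From 6 h to 24 h it rose by 4.46 in shoots (SE 0.40, limma adjusted p = 9.65e-06) and fell by 3.42 in roots (SE 0.64, adjusted p = 0.0112), on the log2(TPM + 1) scale. The root fall is the single one counted above, which was lost without underground library 6 of 6 h.

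Glyur000166s00010574 was lowest against control at 12 h. Its shoot levels were 134.70, 511.43 and 217.85 TPM in control, 2457.19, 4454.44 and 4447.66 TPM at 2 h, 402.99, 473.78 and 224.41 TPM at 6 h, 8.28, 18.38 and 18.80 TPM at 12 h, and 2081.99, 4287.36 and 5642.40 TPM at 24 h. The 2 h and 24 h libraries overlapped and lay above the rest, control and 6 h overlapped, and 12 h lay below all. Its 15 root libraries held 3.24 to 7.17 TPM. The rise of 3.40 from 6 h to 24 h in shoots passed (SE 0.52, limma adjusted p = 6.44e-04), and the root difference of 0.23 did not (SE 0.22, adjusted p = 0.616).

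Glyur000305s00025112 had the largest called rise from 6 h to 24 h. It went from 2.34, 3.16 and 4.67 TPM to 155.15, 405.04 and 109.91 TPM in shoots, a change of 5.48 (SE 0.60, limma adjusted p = 5.11e-05). It had 7.42, 8.12 and 0.81 TPM in shoot controls, 300.31, 584.67 and 354.23 TPM at 2 h, and 0.34, 1.61 and 1.61 TPM at 12 h. In roots it was listed at 0 in 12 of 15 libraries and reached at most 1.04 TPM.

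Glyur002161s00032827 was the only one of the 127 genes called lower at 24 h than at 6 h in shoots. Its levels there were 27.70, 36.96 and 39.79 TPM in control, 154.19, 88.10 and 85.81 TPM at 2 h, 51.25, 36.95 and 33.96 TPM at 6 h, 15.60, 9.99 and 20.05 TPM at 12 h, and 21.95, 10.16 and 19.67 TPM at 24 h. The 12 h and 24 h libraries overlapped, below all those of the other times. The change was -1.24 (SE 0.33, limma adjusted p = 0.0201). It no longer passed without library 4 of 6 h or library 11 of 24 h (adjusted p = 0.0806 and 0.0836), or with only the 6 libraries compared (0.0506), and over all alternatives its adjusted p ran from 0.00832 to 0.0836.

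**Figure D5:**
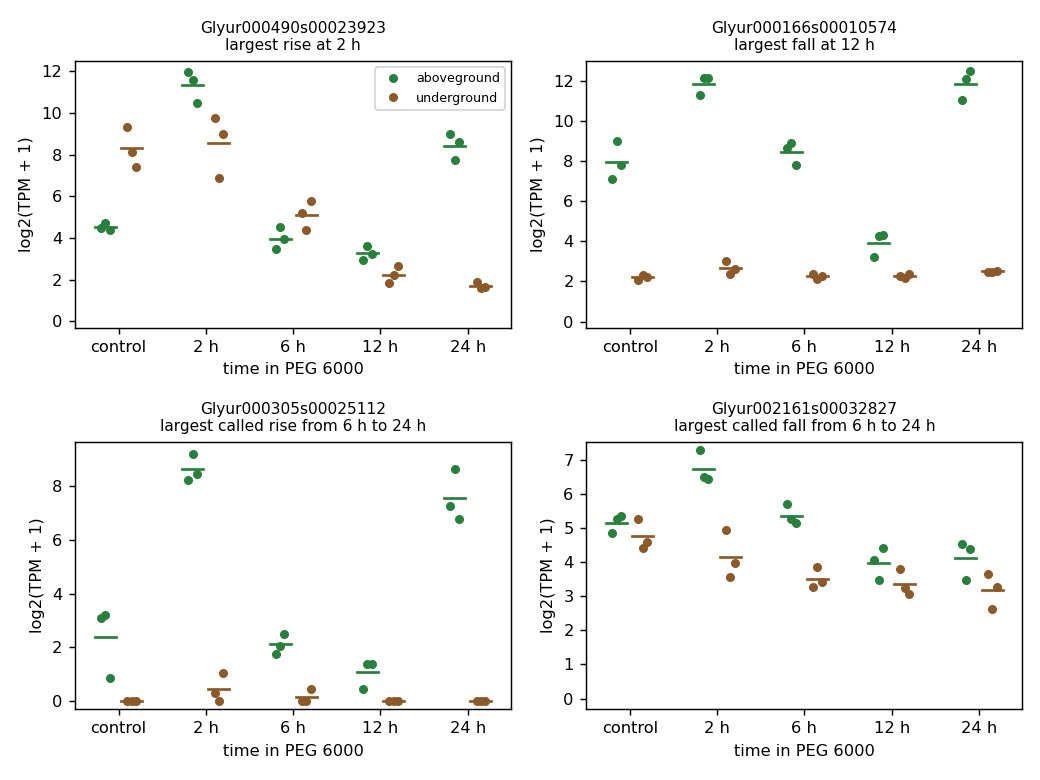
Levels of the 4 identified genes as log2(TPM + 1) (vertical) against time in PEG 6000, with aboveground libraries in green, underground libraries in brown and bars at the mean of 3. In 3 panels the green points are high at 2 h and 24 h, and in the panel of Glyur002161s00032827 those of 24 h stay as low as those of 12 h.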

How the data were processed

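Total RNA of 30 samples was sequenced on standard Illumina libraries, per the labels' protocols. For each library the authors deposited the TPM of 34445 genes, per the file headers. Per the submitters' processing notes, edgeR, DESeq2, RSEM, StringTie, HISAT2 and fastp were used, with no roles listed. The genome build is not given in the sources used here. Deposited TPM summed to 928931 to 972586 per library, and no 2 libraries were identical.

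From these, log2(TPM + 1) was tested with limma's moderated test (version 3.58.1, R 4.3.3), allowing the variance to follow the mean, and p-values were adjusted by Benjamini-Hochberg over all genes tested, with a threshold of 0.05. A gene was kept when 3 or more libraries of the fit reached 1 TPM. Comparisons within a part used its 15 libraries, and those between parts all 30. The fits were tested on simulated data. Alternatives were other filters, a pseudocount of 0.1, quantile normalization, median-ratio rescaling, no trend, a block for the library number, fits of only the compared libraries, and omission of each library in turn. The genes, the conditions and the tests were chosen with earlier results of these data known. The 4 genes given by identifier are those with the largest 2 h difference and the largest 12 h difference without overlap with control, and the largest called rise and fall from 6 h to 24 h in shoots. Lists matched by gene name could not be applied. Figures were drawn with matplotlib 3.10.9.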

Additional observations from a re-analysis of the deposited data

Results flagged for a closer look

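The change from 6 h to 24 h differed between shoots and roots, by limma's test of the difference itself over all 30 libraries, for 51 of the 127 genes. It was higher in shoots for 50 of them and lower for 1, where 2.46% and 3.38% of all genes were called. Among 1045 genes meeting every condition but the one at 12 h, 19.7% were higher and 0.0957% lower. Of the 50, 15 were too low in roots for the root filter, so a root change could not be measured and the difference restates the shoot change. Among the genes given by identifier, the shoot change exceeded the root change by 7.87 for Glyur000490s00023923 (SE 0.79, limma adjusted p = 1.96e-06), by 3.16 for Glyur000166s00010574 (SE 0.56, adjusted p = 0.0011) and by 5.62 for Glyur000305s00025112 (SE 0.69, adjusted p = 2.76e-05), on the log2(TPM + 1) scale. In the first gene the parts moved in opposite directions, and the third is one of the 15, listed at 0 in 12 of 15 root libraries.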

How the results depend on the processing

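Depth is unknown, so counting error at low TPM could not be given, and group sizes of 3 limit the precision. The number of rises from 6 h to 24 h in shoots was 72 to 75 under the other settings and 61 to 73 without single libraries. Over all genes 5.38% to 9.38% and 4.44% to 6.07% rose. The single fall became 0 with only the 6 libraries compared and ranged from 0 to 1 without single libraries. Over all genes 7.53% and 7.17% to 11.2% fell. In roots from 6 h to 24 h, rises became 4 with a filter of 5 TPM, which left 62 of the 127 genes to test in place of 99. Without single libraries they ranged from 6 to 8, where 0.396% to 2.64% of all genes rose. Falls there became 2 with only the 6 libraries compared and ranged from 0 to 3 without single libraries. Over all genes 1.58% and 0.844% to 3.35% fell. From 6 h to 12 h in roots, rises ranged from 0 to 1. With median-ratio rescaling 3 genes were higher in roots at 24 h, where 17.9% of all genes were. The difference between parts gave 30 higher and 2 lower with a pseudocount of 0.1, and 39 to 53 higher without single libraries. No shares over all genes are set beside these counts, so nothing is read from their changes. The causes were not tested. The conditions themselves selected 143 genes with a pseudocount of 0.1 (101 shared), 165 with median-ratio rescaling (127 shared), 152 with quantile normalization (119 shared), and 108 to 160 without single libraries. With the library number as a replicate block, 84 and 13 genes were higher in shoots and in roots at 6 h, 108 and 7 at 24 h, and the difference between parts was called for 52 higher and 1 lower, so no count moved by over 1.5 times. Deviations of same-numbered shoot and root libraries correlated at 0.097 to 0.345 across genes, and each of the 15 shoot libraries correlated best with its own number, a hint from the data and not the design.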
